A study of Pinus pinaster with 24 samples.

Results

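The response of the stem to a sulfate pulse was set against that of the leaf organs in sulfur-starved seedlings of maritime pine (Pinus pinaster). The quantity of interest is a difference of differences for each transcript feature: the log2 change with sulfate in stem minus the mean of the log2 changes in needles and in cotyledons. It was computed over the 18 stem, needle and cotyledon libraries of the 24 in the series, and tested for the 49469 of 67271 features that reached a level of 1 in at least 3 of the 6 libraries of each of these organs. The groups were stem with sulfate, needles with sulfate and cotyledons with sulfate, and the same organs as controls, with 3 libraries in each. The sulfate seedlings received 0.5 mM K2SO4 and the controls 1 mM KCl, and the organs were frozen 24 h later. Seedlings of both treatments had been fed 0.3 mM KNO3 weekly for 3 months from the first month after germination, which left them short of sulfur, and were 4 months old. The control is therefore a starved plant given the same potassium, with chloride in place of sulfate, and no group fed with sulfate throughout was used here. Effects of added sulfate and of absent chloride cannot be told apart in this design. A library holds the pooled organs of 13 to 14 seedlings, so differences between single plants are averaged within it.

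Plants take sulfur up as sulfate through transporters in the roots, move it upwards in the xylem of the stem, and reduce it in plastids, with much of the reduction in green leaves, to make cysteine, methionine and glutathione. In starved plants the transcripts of sulfate transporters and of several assimilation enzymes usually accumulate, and they decline when sulfate returns. The stem is the route between the roots and the leaves, and the needles and the cotyledons, which are the seed leaves, are 2 kinds of leaf organ. No gene names come with the identifiers, which leaves the features below without a known function, and the lists of transporter, assimilation, sulfur deficiency, photosynthesis and lignin genes could not be matched. Likewise the organ labels could not be checked against known marker genes.

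Levels are given in normalized CPM, the deposited CPM of a scaled library size, and the effects as differences of log2(level + 0.5), which understates the change of features with low levels. Between 95097766 and 195881948 reads stood behind each of the 18 libraries. The third principal component, with 4.22% of the variance, parted the treatments, with scores of 4.3 to 41.4 in the sulfate and -47.6 to -13.3 in the control libraries. Needle control 1, needle sulfate 1 and needle sulfate 2 stood apart from the other 3 needle libraries in the scaling factors that the deposited values imply. These were 0.900, 0.877 and 0.904, against 0.936 to 0.984. The set of 3 holds both treatments, but more sulfate than control libraries. Results without these 3 libraries are given below, and there needle sulfate 3 alone stands for sulfate needles. In bulk organs fewer cells of a type and less RNA per cell cannot be told apart.

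The comparison asked which transcripts responded to sulfate in the stem by an amount that differed from the leaf organs. The sulfate effect differed between stem and leaf organs for 14 features, which is 0.0283% of those tested (limma, Benjamini-Hochberg adjusted p under 0.05). In 11 of them the effect was lower in stem (0.0222%) and in 3 it was higher (0.00606%). Neighbouring identifiers with correlated levels were joined into runs, and the 11 lower features belong to 2 runs and the 3 higher ones to 3 runs. Of the lower features 8 make up most of the run PpCO2_106657 to PpCO2_106666. They fell in all organs and fell furthest in stem, and 1 higher feature, PpCO2_102494, fell furthest in the leaf organs. The remaining 5 called features moved by less than 2-fold in every organ of the fit.

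Libraries of the same treatment and replicate number deviated from their group means together (r = 0.31 to 0.51 between stem and the leaf mean over 6 such sets). Differences taken within each treatment and number, 3 with sulfate against 3 controls, therefore form the paired test of the same contrast. It called 5 features lower and 1 higher, all of them among the 14 (limma, Benjamini-Hochberg adjusted p under 0.05). The 5 were PpCO2_106660, PpCO2_106661, PpCO2_106662, PpCO2_106664 and PpCO2_106665, and the higher one was PpCO2_102494. The other 8 called features did not pass in this paired test, which gives the same differences from 6 values in place of 18 libraries. Without the 3 needle libraries that stood apart, needle sulfate 3 alone stands for sulfate needles, so the calls of that fit rest on no replicate of this group.

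**Figure D1:**
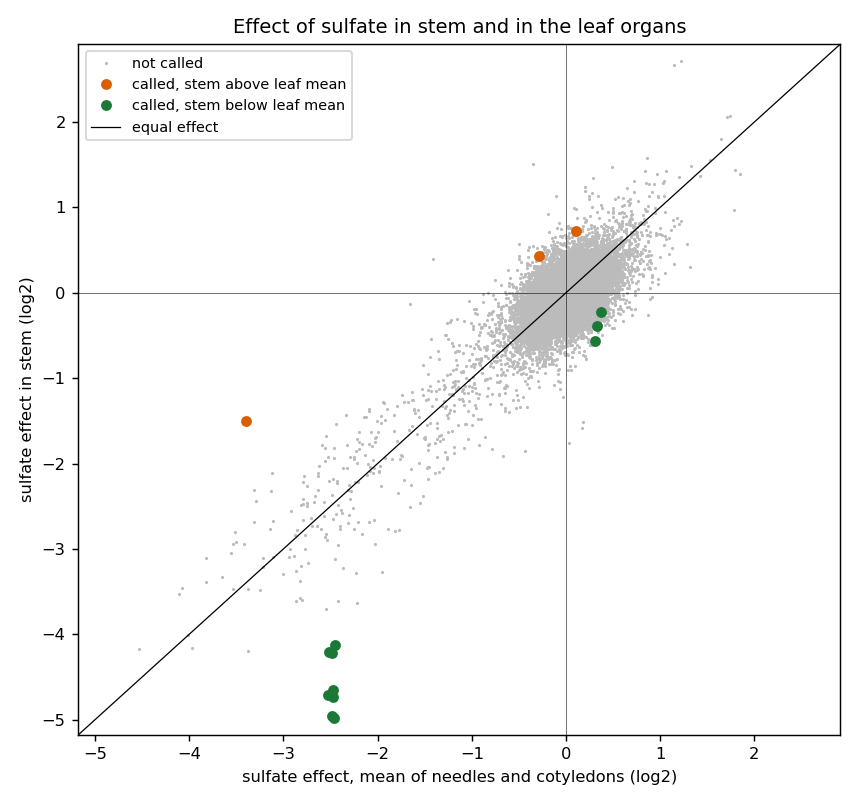
The sulfate effect in stem (vertical axis, log2) is plotted against the mean sulfate effect of needles and cotyledons (horizontal axis, log2) for the 49469 features tested, with the line of equal effect. Grey points were not called, the 11 green points were called lower in stem and the 3 orange points higher in stem, and the run of 8 lies at leaf effects near -2.5 and stem effects of -4.98 to -4.13.

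The run PpCO2_106657 to PpCO2_106666 gave the most negative called differences. PpCO2_106665 stood at 2.03, 2.78 and 2.00 normalized CPM in sulfate stem, against 95.8, 101 and 63.5 in control stem. In needles its levels were 62.3, 68.1 and 66.7 normalized CPM with sulfate, against 361, 293 and 300 in controls. In cotyledons they were 46.2, 44.1 and 54.9 normalized CPM with sulfate, against 330, 329 and 296 in controls. In each organ the sulfate libraries lay below every control library, and sulfate stem lay below all the other groups. The mean in control stem (86.9 ± 20.4 normalized CPM, SD, n = 3) was below those of control needles (318 ± 37.2) and control cotyledons (318 ± 19.5), a comparison between organs that rests on the authors' scaling. The control mean was 38.3 times the sulfate mean in stem, 4.84 times in needles and 6.58 times in cotyledons.

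The log2 effect on PpCO2_106665 was -4.96 ± 0.15 in stem (SE), -2.26 ± 0.15 in needles and -2.71 ± 0.15 in cotyledons. The difference between stem and the leaf mean was -2.48 ± 0.19, with a 95% interval of -2.88 to -2.08 (limma, Benjamini-Hochberg adjusted p = 3.53e-05). Within treatment and number it was -2.48 ± 0.20 (paired limma, adjusted p = 0.0353, the highest over 16 alternatives, the lowest being 2.69e-07). The log2 level in stem minus the leaf mean was -4.42, -4.08 and -4.61 in the sulfate sets, against -1.84, -1.61 and -2.22 in the control sets. The sets did not overlap, which is a description of a feature that the same contrast chose. PpCO2_106664 fell in the same way, to 1.68 ± 0.481 normalized CPM in sulfate stem, against 68.6 ± 16.6 in control stem (SD, n = 3). Its difference between stem and the leaf mean was -2.52 ± 0.21 (limma, Benjamini-Hochberg adjusted p = 6.52e-05), the most negative of all features tested on the log2(level + 0.5) scale. On recovered reads it was -2.88, and 6 other members of the run were lower, down to -3.29 for PpCO2_106659 (edgeR).

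Of the 10 identifiers in this run 9 were tested and 8 called. The 8 called differences ran from -2.52 to -1.68. All 8 features fell in stem, needles and cotyledons, by the contrast of each organ in the fit of 18 libraries (limma, Benjamini-Hochberg adjusted p under 0.05; of all features tested 0.673%, 0.689% and 0.465% fell in these organs). Their stem effects were -4.98 to -4.13, their needle effects -2.36 to -2.25 and their cotyledon effects -2.71 to -2.56 on the log2 scale. The spread of the effect along the run was thus wider in stem than in either leaf organ. Several members stood near or under the added 0.5 in sulfate stem, where the scale compresses the change. PpCO2_106657, for example, had 0.440, 0.704 and 0.570 normalized CPM in sulfate stem, against 20.4, 23.1 and 12.8 in control stem.

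PpCO2_106663 was the tested member that did not pass, at -1.15 ± 0.24 (limma, Benjamini-Hochberg adjusted p = 0.418). Its levels of 0.0783, 0.162 and 0.202 normalized CPM in sulfate stem, against 9.81, 9.40 and 5.36 in control stem, correspond to 8, 17 and 22 reads, against 1065, 983 and 557. On recovered reads its difference was -3.13 (edgeR, Benjamini-Hochberg adjusted p = 0.00176), and within treatment and number it was not called (paired limma, adjusted p = 0.523). PpCO2_106658 was too low to be tested, with 0, 4 and 2 reads in sulfate stem, against 136, 142 and 94 in control stem. Neighbouring identifiers with correlated levels may share reads, so the run is not 10 separate observations.

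**Figure D2:**
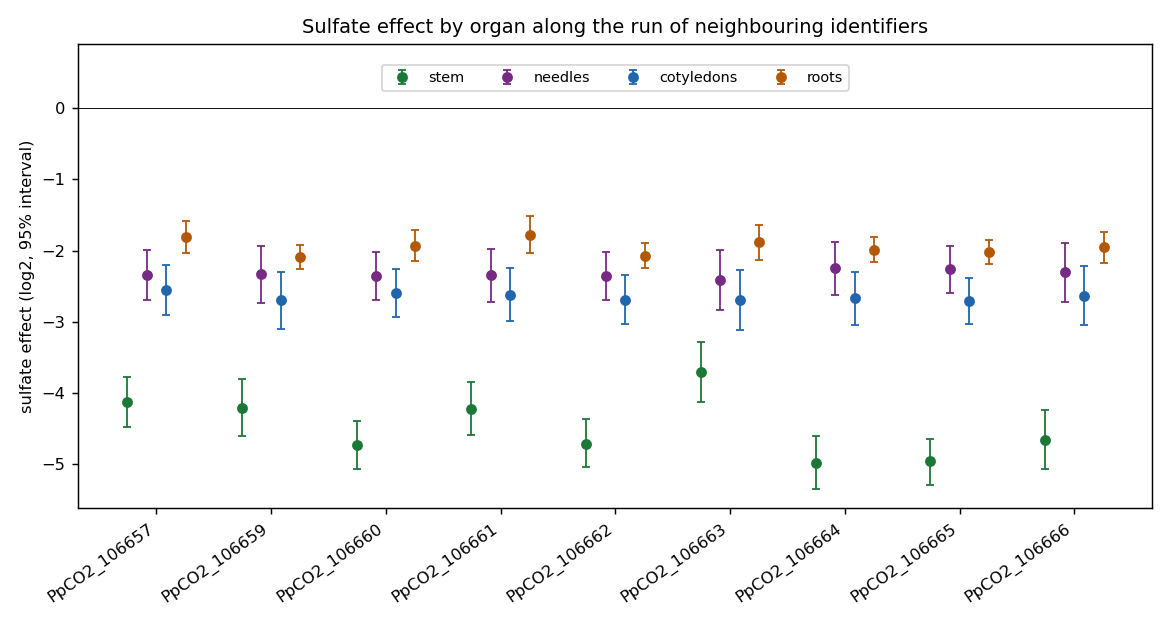
Points give the sulfate effect (log2, with 95% interval) for the 9 tested members of the run in stem, needles, cotyledons and roots. The stem points lie from -4.98 to -3.71 and below those of the other organs for each member, and the roots were fitted apart from the other organs.

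Roots, which the contrast does not use, gave a further reading of the same run. PpCO2_106665 stood at 24.0, 27.0 and 24.2 normalized CPM in sulfate roots, against 111, 102 and 96.3 in control roots, an effect of -2.02 ± 0.07 (limma on the 6 root libraries, Benjamini-Hochberg adjusted p = 1.89e-05). All 9 tested members of the run fell in roots, by effects of -2.09 to -1.78 (of 60398 features, 1.87% were called in roots in either direction, 1.38% lower and 0.487% higher). The control mean of PpCO2_106665 in roots, 103 ± 7.30 normalized CPM, was close to that in stem, and the sulfate means were 25.1 ± 1.63 in roots and 2.27 ± 0.443 in stem (SD, n = 3). The difference between stem and roots was not tested.

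PpCO2_102494 fell in the opposite order. Its levels were 8.85, 7.05 and 6.57 normalized CPM in sulfate stem, against 21, 28.6 and 17.7 in control stem. In needles they were 3.80, 3.49 and 2.14 normalized CPM with sulfate, against 35.2, 43.5 and 30.0 in controls. In cotyledons they were 3.69, 3.46 and 2.59 normalized CPM with sulfate, against 36.8, 47.1 and 36.3 in controls. Sulfate stem lay above sulfate needles and sulfate cotyledons, whereas control stem lay below the control leaf organs, with no overlap in either case. The control mean was 3.00 times the sulfate mean in stem, 11.5 times in needles and 12.3 times in cotyledons. The effect was -1.50 ± 0.21 in stem and -3.39 ± 0.15 in the leaf mean, which gave a difference of 1.89 ± 0.26 (limma, Benjamini-Hochberg adjusted p = 0.00991). Within treatment and number the difference was 1.89 ± 0.12 (paired limma, adjusted p = 0.0127; 1.53e-04 to 0.402 over 16 alternatives). Without stem control 1 the difference was no longer called (limma, adjusted p = 0.0561). In roots the effect was -1.54 ± 0.11 (limma, Benjamini-Hochberg adjusted p = 0.000906), with a control mean 3.01 times the sulfate mean.

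The features PpCO2_157698, PpCO2_157699 and PpCO2_157700 form the second run with a lower effect in stem, and all 3 were called. They belong to features that are abundant in the leaf organs and low in stem. PpCO2_157700 stood at 2.50, 3.02 and 3.08 normalized CPM in sulfate stem, against 4.64, 3.87 and 4.91 in control stem. In needles its levels were 49.4, 46.9 and 47.0 normalized CPM with sulfate, against 40.7, 37.3 and 39.9 in controls. In cotyledons they were 58.6, 59.6 and 60.0 normalized CPM with sulfate, against 48.5, 49.5 and 43.4 in controls. Thus the sulfate libraries were all below the controls in stem and all above them in both leaf organs. The difference between stem and the leaf mean was -0.87 ± 0.11 (limma, Benjamini-Hochberg adjusted p = 0.00302), made up of -0.56 ± 0.09 in stem and 0.31 ± 0.06 in the leaf mean.

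PpCO2_157698 and PpCO2_157700 fell in stem and rose in the leaf mean. In the same fit of 18 libraries PpCO2_157698 also rose in the contrasts of needles and of cotyledons (called in either direction, 0.918% of features in needles and 0.651% in cotyledons; called higher, 0.228% and 0.186%; with the replicate number as a block the features called higher in cotyledons were 257 in place of 92). The rise of PpCO2_157700 did not pass in needles or cotyledons taken singly (limma, Benjamini-Hochberg adjusted p = 0.2 and 0.132). PpCO2_157699 rose in the leaf mean with a stem effect of -0.22 ± 0.08 that did not pass (limma, Benjamini-Hochberg adjusted p = 0.41). The differences between stem and the leaf mean were -0.73 ± 0.09 for PpCO2_157698 and -0.59 ± 0.09 for PpCO2_157699. Within treatment and number none of the 3 was called (paired limma, adjusted p = 0.523 for each; 5.13e-04 to 1 over 15 alternatives for PpCO2_157700). The differences of the sulfate sets did not overlap those of the control sets. The same contrast chose these features, so this is a description, and the share of all features without overlap is not given here. Without the 3 needle libraries that stood apart, a fit with no replicate of sulfate needles, PpCO2_157700 was not called either. The 709 features at least 32 times higher in control needles and control cotyledons than in control stem summed to 348 ± 29.7 normalized CPM in sulfate stem and 346 ± 39.9 in control stem (SD, n = 3), with overlapping ranges of 315 to 373 and 301 to 378. The control libraries themselves chose these features as low in stem, which can lower the control sum. The part of these sums in the result was not tested.

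PpCO2_153668 rose in stem. Its levels were 54.9, 58.1 and 55.9 normalized CPM in sulfate stem, against 36.7, 34.6 and 30.9 in control stem, and these did not overlap. In needles they were 13.9, 14.5 and 12.7 normalized CPM with sulfate, against 12.5, 12.5 and 13.0 in controls, and in cotyledons 25.9, 24.1 and 25 with sulfate, against 22.5, 24.2 and 22.2 in controls. Both leaf organs overlapped between treatments. The effect was 0.72 ± 0.07 in stem (limma, Benjamini-Hochberg adjusted p = 1.43e-05) and 0.11 ± 0.05 in the leaf mean, where it did not pass, with a difference of 0.61 ± 0.09 (adjusted p = 0.0148). In roots the effect was 0.02 ± 0.15 (95% interval -0.32 to 0.36). Within treatment and number the difference was not called (paired limma, adjusted p = 0.523; 0.00461 to 1 over 16 alternatives).

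PpCO2_63307 rose in stem and fell in the leaf mean. Its levels were 28.2, 26.3 and 24.3 normalized CPM in sulfate stem, against 21, 19 and 18.1 in control stem. Sulfate needles had 16.2, 18.4 and 20 normalized CPM, against 23.4, 21.9 and 21.5 in control needles. Sulfate cotyledons had 12.5, 13.6 and 13.5 normalized CPM, against 15, 16.7 and 17.3 in control cotyledons. The treatments did not overlap in any of these organs. The fall passed in the leaf mean (limma, Benjamini-Hochberg adjusted p = 0.023), but not in needles or cotyledons taken singly (adjusted p = 0.192 and 0.231). The effect was 0.43 ± 0.09 in stem and -0.29 ± 0.06 in the leaf mean, with a difference of 0.72 ± 0.11 (limma, Benjamini-Hochberg adjusted p = 0.021). It belongs to a run of 4, PpCO2_63307 to PpCO2_63310, whose differences were 0.58 to 0.72, and the other 3 members were not called (limma, adjusted p = 0.115 to 0.414). Within treatment and number PpCO2_63307 was not called (paired limma, adjusted p = 0.523; 0.00906 to 1 over 16 alternatives), and leaving out a single library ended its call for 7 of 18 libraries (stem controls 2 and 3, stem sulfate 1 and 2, cotyledon control 3, cotyledon sulfate 1 and needle control 1; limma, adjusted p = 0.0516 to 0.129, with differences of 0.67 to 0.72). The call of PpCO2_153668 ended in the same way for stem controls 2 and 3 and for each stem sulfate library (limma, adjusted p = 0.0529 to 0.111, with differences of 0.54 to 0.63).

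**Figure D3:**
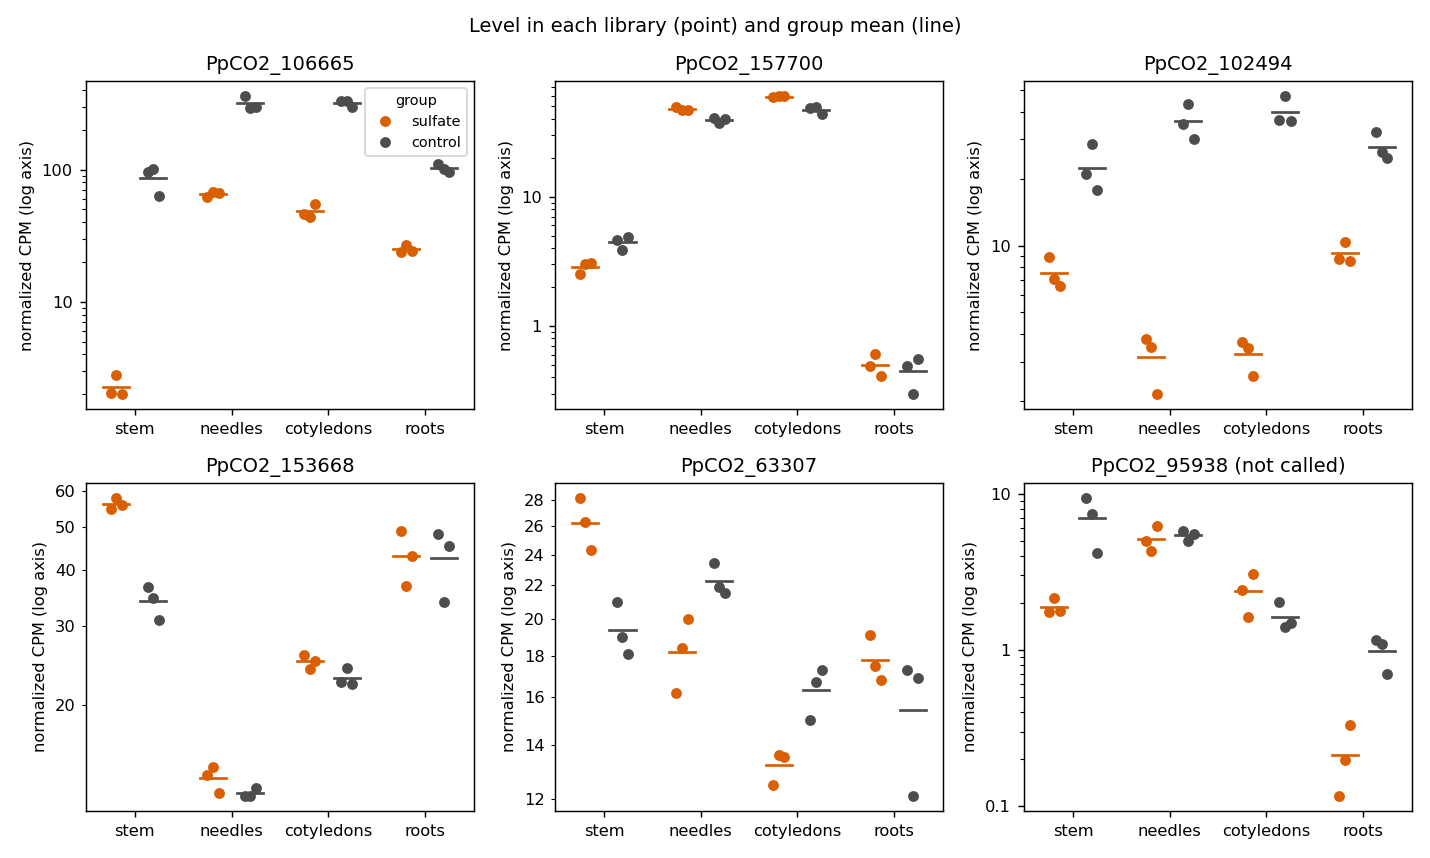
Normalized CPM on a log axis is shown for 6 features in each library (points; orange sulfate, grey control) with the group mean (line), by organ. PpCO2_106665 drops furthest in stem, and PpCO2_102494 drops furthest in needles and cotyledons. PpCO2_157700 and PpCO2_63307 move in opposite directions in stem and in the leaf mean, but their effects passed in neither leaf organ taken singly. PpCO2_153668 moves in stem, and PpCO2_95938, at 1.75 to 2.14 in sulfate stem and 4.14 to 9.42 in control stem, was not called.

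The naming rule also gave features that stood next in line and did not pass. PpCO2_95938 had 1.75, 2.14 and 1.77 normalized CPM in sulfate stem, against 9.42, 7.44 and 4.14 in control stem, while its means in needles were 5.16 ± 0.962 with sulfate and 5.43 ± 0.406 in controls (SD, n = 3). Its difference was -1.75 ± 0.29 (limma, Benjamini-Hochberg adjusted p = 0.0632), and edgeR on recovered reads called it at -2.12 (adjusted p = 0.0304; 0.0144 to 1 over 15 alternatives). Its levels in roots were also lower, at 0.116, 0.197 and 0.328 normalized CPM with sulfate, against 1.16, 1.09 and 0.702 in controls, below the filter of the root fit. PpCO2_128976 and PpCO2_177003 had differences of -0.55 ± 0.11 and -0.43 ± 0.09 (limma, Benjamini-Hochberg adjusted p = 0.217 and 0.39). On the other side PpCO2_87444 and PpCO2_148217 had differences of 0.61 ± 0.11 and 0.69 ± 0.12 (limma, Benjamini-Hochberg adjusted p = 0.115 and 0.125). In each of these 5 features the log2 levels in stem minus the leaf mean did not overlap between the sulfate and the control sets. The same contrast chose these features, so this is a description that adds nothing to their test. The share of all features without overlap is not given here.

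**Figure D4:**
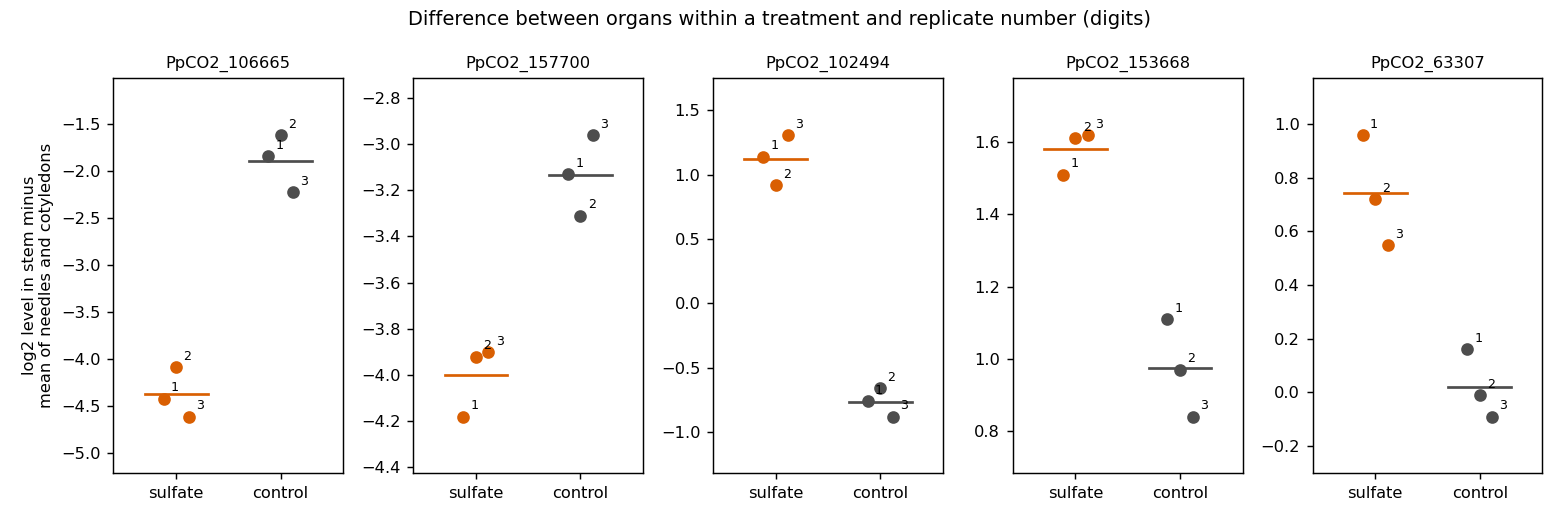
Each point is the log2 level in stem minus the mean log2 level of needles and cotyledons within a treatment and replicate number (digits), for 5 called features, and lines are means. Sulfate and control points do not overlap in any panel, which is a description of features that the same contrast chose. The share of all features without overlap is not given here. For PpCO2_106665 the points lie at -4.61 to -4.08 with sulfate and -2.22 to -1.61 in controls.

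The leaf organs were then taken singly. Both contrasts use the same stem libraries, so they are not independent of each other. Against needles alone the stem effect was lower for 10 features and higher for 0, which is 0.0202% of those tested (limma, Benjamini-Hochberg adjusted p under 0.05; 732 were higher at an unadjusted p under 0.05, and edgeR called 1 higher). Against cotyledons alone it was lower for 10 and higher for 2 features (0.0202% and 0.00404%, 0.0243% in all). The paired test, on differences within treatment and number, called fewer. Against needles it called 4 lower, PpCO2_106660, PpCO2_106662, PpCO2_106664 and PpCO2_106665, and PpCO2_102494 higher. Against cotyledons it called 0 lower, so that none of the 10 passed, and PpCO2_102494 higher (limma on the paired differences, Benjamini-Hochberg adjusted p under 0.05; 2825 were lower at an unadjusted p under 0.05, and edgeR on unpaired reads called 20 lower). The paired estimates equal the unpaired ones. Of the 10, PpCO2_106660 at -2.14 and PpCO2_106665 at -2.25 came nearest to passing (paired limma, adjusted p = 0.0573 for each). For PpCO2_106665 the difference was -2.70 ± 0.22 against needles and -2.25 ± 0.22 against cotyledons, and the needles and cotyledons themselves differed by 0.45 ± 0.22 (95% interval -0.01 to 0.91). For PpCO2_102494 it was 1.85 ± 0.30 against needles, which did not pass (limma, Benjamini-Hochberg adjusted p = 0.0682), and 1.93 ± 0.30 against cotyledons (adjusted p = 0.0373). PpCO2_157700 was called against each leaf organ in the unpaired fit, at -0.84 against needles and -0.89 against cotyledons. PpCO2_153668, at 0.62 and 0.60, and PpCO2_63307, at 0.72 and 0.72, passed against neither leaf organ (limma, Benjamini-Hochberg adjusted p = 0.0682 and 0.0685, and 0.105 and 0.0745). PpCO2_157699 passed against neither, and PpCO2_106659, at -1.88 against needles and -1.51 against cotyledons, passed against needles and not against cotyledons.

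**Figure D5:**
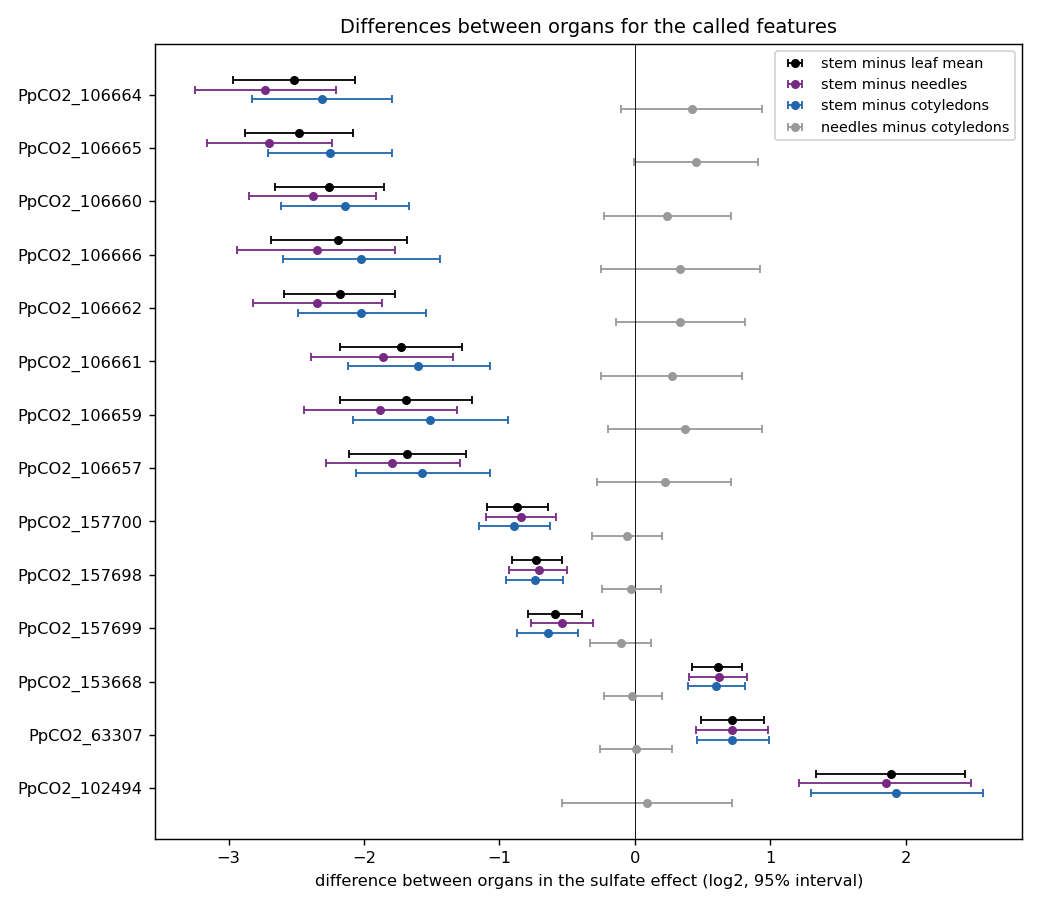
For the 14 called features the difference in the sulfate effect (log2, with 95% interval) is shown for stem minus the leaf mean, stem minus needles, stem minus cotyledons and needles minus cotyledons. The first 3 lie on the same side of 0 for every feature, from -2.73 to 1.93, and each interval of needles minus cotyledons includes 0.

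Needles and cotyledons gave 0 features with a called difference from each other (limma, Benjamini-Hochberg adjusted p under 0.05; 1736 higher and 1655 lower at an unadjusted p under 0.05). On recovered reads edgeR called 1 higher and 10 lower. The count of 0 does not show that the leaf organs acted alike, since its 95% interval reached 0.38 to either side on the log2 scale at the median feature. PpCO2_171977 and PpCO2_76054, called against cotyledons alone, are features in which the cotyledons moved. PpCO2_171977 had 303, 271 and 273 normalized CPM in sulfate stem, against 234, 208 and 230 in control stem, and 6.19, 2.90 and 3.36 in sulfate cotyledons, against 0.455, 0.543 and 0.757 in control cotyledons. Its stem minus cotyledon difference was -1.71 ± 0.26 (limma, Benjamini-Hochberg adjusted p = 0.0373), but it was not called in the paired test, and against needles it was 0.09 ± 0.26. This transcript was 224 ± 14.2 normalized CPM in control stem and 0.585 ± 0.155 in control cotyledons (SD, n = 3). The 209 features at least 32 times higher in control stem than in both control leaf organs summed to 38.7 to 65.8 normalized CPM in sulfate cotyledons and 27.3 to 34.3 in control cotyledons, with no overlap. In needles the sums were 44.7 to 51.3 with sulfate and 50.6 to 59.0 in controls. The control libraries themselves chose these features as low in the leaf organs, which can lower the control sums. The part of stem-high transcripts in the call of PpCO2_171977 was not tested. PpCO2_76054 fell in cotyledons, to 1.34, 1.69 and 1.88 normalized CPM with sulfate, against 4.43, 4.58 and 4.35 in controls, and its stem effect was 0.01 ± 0.11. Its stem minus cotyledon difference was 1.23 ± 0.15 (limma, Benjamini-Hochberg adjusted p = 0.00463), and it too was not called in the paired test.

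Stem and leaf organs had many changes in common, and the counts that follow include the called features. In the fit of 18 libraries 333 features fell (0.673%) and 46 rose (0.0930%) in stem, 0.766% of those tested in all, and 530 fell (1.07%) and 274 rose (0.554%) in the leaf mean, 1.63% in all (limma, Benjamini-Hochberg adjusted p under 0.05). Of the 333 stem falls 281 (84.4%) were also leaf falls, and these were 53.0% of the 530 leaf falls. Of the 46 stem rises 20 (43.5%) were also leaf rises, and these were 7.30% of the 274 leaf rises. The leaf mean rests on 12 libraries and the stem effect on 6, so its median SE was lower (0.090 and 0.128 on the log2 scale). That SE takes the 12 libraries as independent, but organs that share a treatment and a number may have been taken from the same plants. Deviations of needles and cotyledons from their group means correlated at -0.00 to 0.46 within such sets. The SE of the leaf mean can thus be too low and its counts too high. The counts therefore do not measure which organ responded more.

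The 281 shared falls lie in 113 runs. Their median effects were -1.94 in stem, -2.25 in needles and -1.62 in cotyledons on the log2 scale. The stem effect was the lower one in 163 and the leaf effect in 118, with a median difference of -0.09 and a range of -2.52 to 1.89, whose ends are the called PpCO2_106664 and PpCO2_102494. Of the 281, 8 were called lower and 1 higher in stem than in the leaf mean. For 178 of them (63.3%) the 95% interval of the difference lay within 2-fold in both directions, against 92.3% of all features tested. The 20 shared rises, in 10 runs, had median effects of 0.72 in stem, 0.80 in needles and 0.77 in cotyledons, and for 19 of them the interval lay within 2-fold. These sets were chosen on the same libraries and are given as a description.

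Over all 49469 features the difference between stem and leaf mean had a median SE of 0.156, and its 95% interval reached 0.33 to either side at the median, on the log2 scale. Its 1st and 99th percentiles were -0.53 and 0.47, and the smallest called difference was 0.59 in size. Before adjustment 735 features were higher and 894 lower at p under 0.05. No difference smaller than that was called with 3 libraries in a group.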

How the data were processed

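RNA of 18 libraries (stem, needles and cotyledons, sulfate and control, 3 each) was compared, and 6 root libraries were fitted apart. Per the submitters' processing notes bcl2fastq and BWA were used, without versions; for counting, reference and scaling the method is not given in the sources used here. Deposited was a signal: the authors' CPM, in which a scaled library size replaces the read total (implied factors 0.877 to 1.10 in these libraries). All values are multiples of the step of their library within 0.01 of a step (100% of values), so whole reads were recovered for an added test. In needle control 2 that step lies close to 0.01. Plain CPM had been assumed in the plan; limma suits both. In normalized CPM 3 reads are worth 0.0165 to 0.0351, and limits in reads cover counting error only. Strand is not stated to have been kept, so a transcript and an antisense partner would share reads. Chi-square per feature between libraries of the same group was 11.0 to 68.1, above sampling noise. The labels call the pools biological replicates.

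limma (lmFit, eBayes with trend and robust options) was fitted to log2(value + 0.5) over the means of 6 groups, with Benjamini-Hochberg adjustment over 49469 features and a threshold of 0.05. Tried besides were a pseudocount of 0.1 or 2, a minimum of 5 or none, median ratio rescaling, edgeR's quasi-likelihood test with TMM on recovered reads, replicate blocks, a fit of 24 libraries, array weights, a test against 1.5-fold, single leaf organs and leaving out each library. Runs join identifiers at most 2 apart with a correlation over 0.8 across the libraries; 5 identifiers that end in a letter were left out of runs. Named features were, in each direction, the called ones with the largest difference, 1 per run and with a group mean of at least 2, filled up to 5 by the largest moderated t, then those with the lowest adjusted p and the highest stem level, and up to 2 for each single contrast; other members of their runs were added. The contrast, lists and rules were chosen with earlier results of these data known.

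Pairing was checked on deviations from group means. Libraries of the same treatment and number correlated at 0.31 to 0.43 (stem with cotyledons) and 0.20 to 0.44 (stem with needles), all over 0.1, so the paired fit is printed beside the result; needles with cotyledons ran from -0.00 to 0.46. Equal numbers across treatments did not pair in stem (-0.24 to 0.30) or needles (-0.40 to 0.36); in cotyledons all 3 pairs were over 0.1 (0.15 to 0.26). The fits were also run on simulated reads drawn independently for each library, which cannot test the paired fit where libraries are correlated. Tools were R 4.3.3, limma 3.58.1, edgeR 4.0.16, Python 3.11.15 and matplotlib 3.10.9.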

Additional observations from a re-analysis of the deposited data

Results flagged for a closer look

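The results below stand out because the sulfate effect differed between organs by a test of the difference itself (limma, Benjamini-Hochberg adjusted p under 0.05). These are values of the unpaired fit, and the paired test within treatment and number called 6 of those against the leaf mean, 4 of those against needles and 1 of those against cotyledons. For stem minus the leaf mean the log2 differences were -2.48 for PpCO2_106665, -2.26 for PpCO2_106660, -2.52 for PpCO2_106664, -2.18 for PpCO2_106662, -2.19 for PpCO2_106666, -1.68 for PpCO2_106657, -1.73 for PpCO2_106661 and -1.69 for PpCO2_106659, all in 1 run. They were -0.73 for PpCO2_157698, -0.87 for PpCO2_157700 and -0.59 for PpCO2_157699 in the second run, and 1.89 for PpCO2_102494, 0.61 for PpCO2_153668 and 0.72 for PpCO2_63307.

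For stem minus needles they were -2.70 for PpCO2_106665, -2.73 for PpCO2_106664, -2.38 for PpCO2_106660, -2.35 for PpCO2_106662, -2.35 for PpCO2_106666, -1.79 for PpCO2_106657, -1.86 for PpCO2_106661, -1.88 for PpCO2_106659, -0.71 for PpCO2_157698 and -0.84 for PpCO2_157700. For stem minus cotyledons they were -2.25 for PpCO2_106665, -2.14 for PpCO2_106660, -2.31 for PpCO2_106664, -2.02 for PpCO2_106662, -2.02 for PpCO2_106666, -1.57 for PpCO2_106657, -1.60 for PpCO2_106661, -0.74 for PpCO2_157698, -0.89 for PpCO2_157700, -1.71 for PpCO2_171977, 1.23 for PpCO2_76054 and 1.93 for PpCO2_102494.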

How the results depend on the processing

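Counts below are given as higher and lower features (limma, Benjamini-Hochberg adjusted p under 0.05, unless another tool is named), and the causes of the changes were not tested. Fits without the 3 needle libraries keep needle sulfate 3 alone for sulfate needles, so their counts rest on no replicate of that group. For stem minus the leaf mean, 3 higher and 11 lower became 8 and 26 without a filter, 9 and 26 with array weights, 0 and 5 against 1.5-fold and 1 and 5 with the replicate block of differences within treatment and number. The lower count was 4 with a pseudocount of 2 and 6 without needle control 1, sulfate 1 and sulfate 2, and against needles alone 0 were higher. The block of the replicate number gave 2 and 10, edgeR 4 and 13, and the block as a random effect (chosen after the data were seen, as were the within-pair fits of single organs and the fit without 3 needle libraries) 3 and 12, with a correlation of 0.118. The interaction of PpCO2_171977, -0.81, became 0.09 against needles alone. None of the other 12 of 13 differences named by the rule changed sign under any alternative run for it (added run members were not followed through all alternatives), and rescaling by the median ratio moved no median over features beyond 0.01.

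For the sulfate effect in stem, 46 higher and 333 lower became 92 higher without a filter, 30 and 198 with a minimum of 5, 417 and 621 with array weights, 2 and 178 against 1.5-fold, 86 higher with the replicate block and 76 higher in the 6 stem libraries alone. In needles, 113 and 341 became 66 and 196 with a minimum of 5, 3804 and 3244 with array weights, 3 and 205 against 1.5-fold, 8 and 224 without the 3 needle libraries, 208 higher in 24 libraries and 28 higher in the 6 needle libraries alone. In cotyledons, 92 and 230 became 40 and 143 with a minimum of 5, 3 and 143 against 1.5-fold, 257 higher with the replicate block, 178 higher in 24 libraries and 13 higher in the 6 cotyledon libraries alone. For the leaf mean, 274 and 530 became 165 and 327 with a minimum of 5, 1417 and 1803 with array weights, 2 and 207 against 1.5-fold, 77 and 316 without the 3 needle libraries, 652 higher with the replicate block and 464 higher in 24 libraries.

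For stem minus needles, 0 higher became 3 without a filter, 2 with a minimum of 5, 1 in edgeR, 1 with the replicate block, 3 with the block as a random effect, 2 in 24 libraries and 15 with array weights, where 49 were lower; 10 lower became 2 with a pseudocount of 2, 4 against 1.5-fold and 4 without the 3 needle libraries, and the block of differences within pairs gave 1 and 4. For stem minus cotyledons, 2 and 10 became 0 and 4 with a pseudocount of 2, 6 and 25 without a filter, 0 and 3 against 1.5-fold, 1 and 0 with the block of differences within pairs, 1 and 4 without the 3 needle libraries, 1 higher after rescaling, 20 lower in edgeR and 16 lower with array weights. For needles minus cotyledons, 0 and 0 became 1 and 6 with a pseudocount of 0.1, 1 and 3 without a filter, 1 and 10 in edgeR, 1 and 4 with the replicate block, 1 and 2 with the block as a random effect, 1 and 9 in 24 libraries, 1 and 1 without trend and robust options, 1 and 2 with array weights and 1 higher after rescaling.

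Leaving out each library in turn gave, for stem minus the leaf mean, 1 (without stem control 2, stem control 3, stem sulfate 1 or stem sulfate 2) to 5 higher and 9 to 13 lower. The ranges were 20 (without stem control 2) to 55 higher and 262 to 336 lower in stem, 41 (without needle sulfate 2) to 1949 higher and 253 to 1751 lower (without needle sulfate 3) in needles, 40 to 160 higher and 197 to 503 lower (without cotyledon control 2) in cotyledons, and 164 (without needle sulfate 2) to 923 higher and 381 to 1235 lower (without needle sulfate 3) in the leaf mean. They were 0 to 2 higher and 5 to 13 lower for stem minus needles, 1 to 3 higher and 4 to 13 lower for stem minus cotyledons, 0 to 2 higher and 0 to 3 lower for needles minus cotyledons, and 54 (without roots sulfate 1) to 404 higher and 279 to 919 lower in roots. The replicate block in roots gave 330 higher and 892 lower, against 294 and 835.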
